A study of Mus musculus with 14 samples.

Results

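Thymic lymphomas of mice heterozygous for Hif1a (Hif1a+/-) were set against those of mice with 1 knock-in allele (Hif1aKI/+), gene by gene across the whole array. The members were the tumours titled with those genotypes, 5 Hif1a+/- and 4 Hif1aKI/+, which make 9 of the 14 tumours of the series. The other 5 tumours were Hif1a+/+ and entered the fit only to estimate the spread between tumours. Every mouse, whatever its Hif1a genotype, was of the mixed strain C57BL/6-129/SvEvTac and homozygous for the p53 mutation R270H. Animals were aged until breathing became laboured, so the tumours are end-stage and their ages and sexes are not in the labels. The series asks which expression differences could go with differences in tumour onset and incidence, and this comparison asks how 2 altered Hif1a genotypes differ from each other. What the knock-in allele carries, which exons either altered allele lacks and how the alleles were made are not stated in the labels. Each tumour was measured on 1 Affymetrix array, and levels are deposited log2 values, on which a difference of 1 is a doubling.

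HIF-1 is a transcription factor made of an oxygen-regulated alpha subunit, encoded by Hif1a, and a constitutive beta subunit, encoded by Arnt. In normal oxygen, prolyl hydroxylases mark the alpha subunit for the VHL ubiquitin ligase, and in low oxygen it accumulates and turns on genes of glycolysis, iron uptake and vessel growth. Thymic lymphomas arise from immature T cells, in which Notch receptor signalling drives lineage commitment and growth and is frequently active in mouse tumours.

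The tumours expressed T-lineage genes at high levels in both genotypes. The surface glycoprotein gene Thy1 averaged 14.13 ± 0.082 in Hif1a+/- tumours (SD, n = 5) and 14.27 ± 0.19 in Hif1aKI/+ tumours (SD, n = 4), and the co-receptor gene Cd8a averaged 13.87 ± 0.16 and 13.90 ± 0.25. The recombinase gene Rag1, a marker of immature thymocytes, averaged 12.97 ± 0.47 in Hif1a+/- and 13.24 ± 0.66 in Hif1aKI/+ tumours. Across all genes the arrays correlated at 0.949 to 0.974 between the genotypes, with a median of 0.964, against medians of 0.962 within Hif1a+/- and 0.966 within Hif1aKI/+. Hif1a+/- tumour 5 stood apart on the first principal component (66.9, with 23.2% of the variance) and Hif1aKI/+ tumour 4 on the second (63.3, with 16.8%). The X-inactivation RNA Xist was at 12.68 in Hif1a+/- tumour 1 and 11.97 in Hif1aKI/+ tumour 1, and at 2.05 or less in the other 7 tumours. For the gene lists described, the main shifts when these 4 tumours were left out are given beside the counts.

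Hif1a itself gave a higher signal in Hif1a+/- than in Hif1aKI/+ tumours. At the probe set of highest level it was 12.54, 12.24, 12.47, 12.82 and 12.68 in Hif1a+/- tumours 1 to 5, and 12.25, 12.14, 11.94 and 11.75 in Hif1aKI/+ tumours 1, 3, 4 and 5. The groups met at a single point, Hif1a+/- tumour 2 lying just below Hif1aKI/+ tumour 1. The means were 12.55 ± 0.22 (SD, n = 5) and 12.02 ± 0.22 (SD, n = 4), a difference of 0.53 (SE 0.16, 95% interval 0.19 to 0.87) or 1.45-fold, with a two-sided exact permutation p of 0.0238. The Hif1a+/+ tumours spanned 12.44 to 13.04.

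The other probe sets of Hif1a that carried signal ran the same way and farther. The second was at 10.46, 10.12, 10.45, 10.76 and 10.36 in Hif1a+/- tumours, against 9.96, 10.26, 9.43 and 8.84 in Hif1aKI/+ tumours, a difference of 0.81 (95% interval 0.045 to 1.57, exact permutation p = 0.0159). The third was at 9.02, 9.45, 10.56, 9.86 and 10.12 in Hif1a+/- tumours, against 8.63, 6.51, 8.14 and 9.0 in Hif1aKI/+ tumours. At the third probe set the groups did not overlap, though Hif1a+/- tumour 1 and Hif1aKI/+ tumour 5 were 0.01 apart, and the difference of 1.73 (3.32-fold, 95% interval 0.67 to 2.79, exact permutation p = 0.0159) owed part of its size to the low Hif1aKI/+ tumour 3. The fourth probe set lay at background in both genotypes, with means of 2.30 and 2.06 (exact permutation p = 0.476). Adjusted over the 4 probe sets, p was 0.0317 for each of the first 3, where 0.00794 is the smallest p these group sizes allow. The fit over all genes did not call the first probe set (adjusted p = 0.99998). The labels do not tell which of these probe sets an altered allele would still feed, so the signals do not measure the dose of working transcript.

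**Figure D1:**
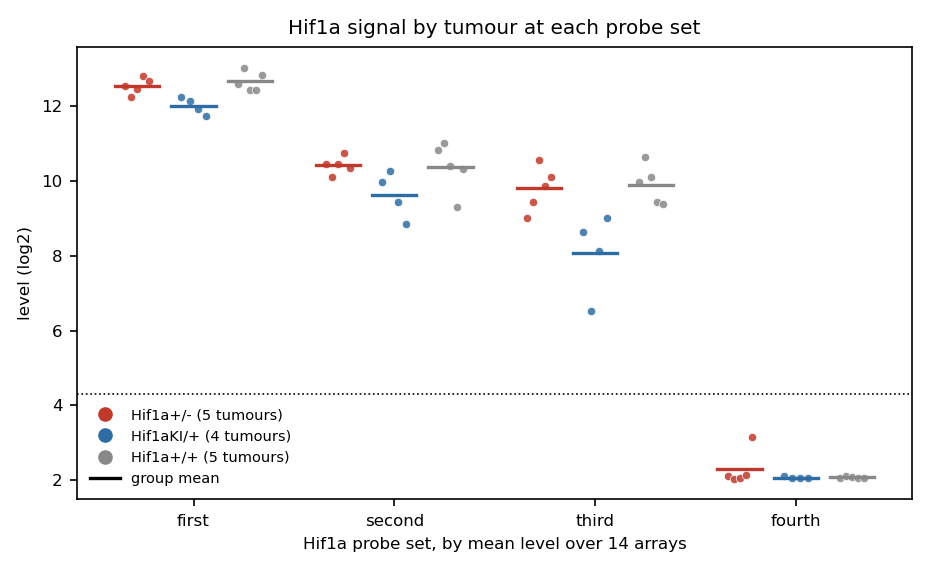
Level of Hif1a (log2) at its 4 probe sets, ordered by mean level, with 1 point per tumour, a bar at each group mean and a dotted line at the low-mode boundary of 4.3. The Hif1a+/- means lie above the Hif1aKI/+ means at the first 3 probe sets, by 0.53, 0.81 and 1.73, and the fourth lies below the boundary.

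The promoter of Hif1a is shown because it holds the short core that HIF dimers bind, ACGTG or GCGTG, here searched on both strands. The windows run from 250 bases before to 50 bases after an annotated transcript start (RefSeq, GRCm38.p6), and capitals mark the cores. In the Hif1a window, chr12:73907617-73907916 on the plus strand, there were 3 cores, of which a pair on opposite strands overlap in CACGTG.
Hif1a: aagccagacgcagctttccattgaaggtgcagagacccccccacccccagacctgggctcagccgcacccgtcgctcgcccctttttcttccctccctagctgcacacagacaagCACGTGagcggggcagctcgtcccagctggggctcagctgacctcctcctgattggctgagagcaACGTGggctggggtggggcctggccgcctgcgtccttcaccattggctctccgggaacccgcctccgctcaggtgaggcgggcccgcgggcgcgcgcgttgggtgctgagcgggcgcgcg

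The other HIF subunits gave little signal on this array. Epas1, which encodes HIF-2alpha, was at 2.01, 2.01, 2.01, 2.03 and 2.01 in Hif1a+/- tumours and 2.11, 2.01, 2.02 and 2.82 in Hif1aKI/+ tumours, all at background (exact permutation p = 0.0556). Arnt was below 2.6 in all 9 tumours, and Hif3a, which encodes a further alpha subunit, was at 1.93 to 1.99 in Hif1a+/- and 2.69 to 3.67 in Hif1aKI/+ tumours. The Hif3a ranges did not overlap, but every value lay below 4.3, the boundary of the low mode of the array's values, under which a difference is measured against background (log2 difference -1.36, SE 0.63, 95% interval -2.75 to 0.019). Of 13 measured genes of the HIF pathway 9 were higher in Hif1a+/- tumours, against 46.9% of all genes. The median difference of 0.12 was the value of Arnt, a gene at background. Hif1a alone was at an unadjusted p under 0.05, against 1.41% of all genes higher at that level. The direction of the list turned on Hif1aKI/+ tumour 4: leaving it out gave 6 of 13 higher and a median of -0.0074. Leaving out Hif1a+/- tumour 5 as well gave 6 of 13 and a median of -0.12. The coactivator gene Crebbp averaged 10.60 in Hif1a+/- and 11.12 in Hif1aKI/+ tumours (95% interval -1.24 to 0.19).

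Across the array no gene passed the test between the genotypes. Of 10254 genes, 0 had a limma adjusted p under 0.05 (0% called, 0% in either direction), and the smallest adjusted p was 0.99998, so every gene named here has an adjusted p of at least that. The 95% intervals given are for each gene alone, without adjustment for the number of genes. Each rests on 1 spread per gene shared by all genotypes. An interval is therefore a poor guide for genes whose groups differ in spread, such as Hif3a, Notch3 and Ptcra. At an unadjusted p under 0.05 there were 314 genes (3.06%, under the 5% that the level allows with no difference), 145 higher (1.41%) and 169 lower (1.65%) in Hif1a+/- tumours. The 2 genotypes did not overlap in 69 genes (0.673%), 24 higher (0.234%) and 45 lower (0.439%). Differences above 0 made up 46.9% of genes and differences below 0 made up 53.1%, with a median of -0.0012. The missed threshold does not show that the tumours were alike: for a gene above the low-mode boundary the 95% interval typically reached 0.66 to either side. A difference of at least 1 was seen in 427 genes with a group mean above the boundary. Of these 91 were at an unadjusted p under 0.05, against 3.06% of all genes. They were picked by the size of the same difference, so the 91 are a description and no evidence that the tumours differed.

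**Figure D2:**
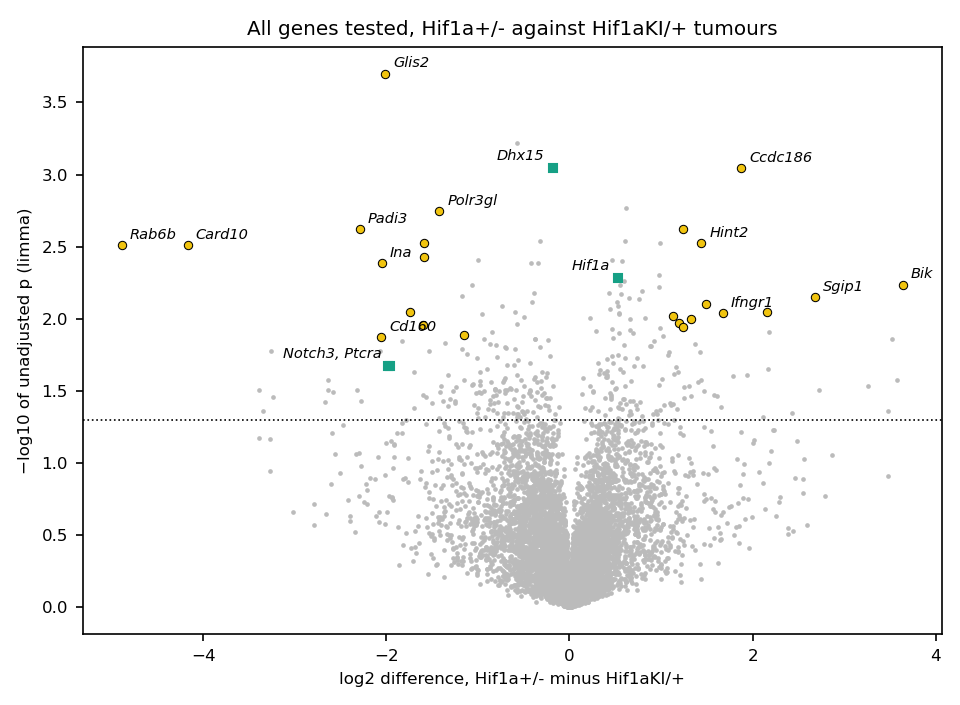
Each point is 1 of 10254 genes, with the log2 difference (Hif1a+/- minus Hif1aKI/+) across and the negative log10 of the unadjusted limma p up; the dotted line marks the unadjusted 0.05 level and 0 genes pass after adjustment. Ringed points are the 12 highest-ranked genes with a difference of at least 1 in each direction, some of them named, and squares mark Hif1a, Notch3, Ptcra and Dhx15.

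The 12 highest-ranked genes with a higher level in Hif1a+/- tumours and a difference of at least 1, none of which passed, included a regulator of cell death and several genes of transcription and signalling. Bik, which encodes a BH3-only protein that promotes apoptosis, was at 8.26, 11.22, 8.65, 9.57 and 9.30 in Hif1a+/- tumours and 5.67, 6.17, 3.61 and 7.60 in Hif1aKI/+ tumours. Every Hif1a+/- tumour lay above every Hif1aKI/+ tumour, and the difference was 3.64 (SE 1.08, 95% interval 1.27 to 6.00, limma adjusted p = 0.99998). Another probe set of Bik differed by 2.50 (SE 0.84) and the remaining one, with both means below the boundary, by 1.56 (SE 0.91). In Hif1a+/+ tumours Bik ranged from 4.43 to 9.76, across both groups. The 10 other measured Bcl2 family genes differed by -1.35 to 0.14.

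Ccdc186, which encodes a coiled-coil protein, had the smallest p among the higher genes. It was at 6.19, 5.96, 6.47, 4.85 and 7.44 in Hif1a+/- tumours and 4.19, 4.81, 3.95 and 4.27 in Hif1aKI/+ tumours, most of the Hif1aKI/+ values being below the boundary (difference 1.88, SE 0.43, 95% interval 0.94 to 2.81). The groups did not overlap, by 0.04. Hint2, encoding a mitochondrial nucleotide hydrolase, was at 11.70, 12.11, 11.15, 11.60 and 11.68 in Hif1a+/- tumours and 9.09, 9.95, 10.96 and 10.82 in Hif1aKI/+ tumours (difference 1.44, SE 0.39, 95% interval 0.60 to 2.29). Here too the groups did not overlap, and the Hif1a+/+ range of 9.66 to 10.95 lay inside the Hif1aKI/+ range.

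Ifngr1, the ligand-binding chain of the interferon gamma receptor, was at 12.01, 11.43, 11.35, 10.01 and 12.41 in Hif1a+/- tumours and 10.06, 9.38, 9.39 and 10.24 in Hif1aKI/+ tumours (difference 1.67, SE 0.54, 95% interval 0.50 to 2.84). Only Hif1a+/- tumour 4 fell within the Hif1aKI/+ range. Sgip1, which encodes an endocytic adaptor, differed by 2.68 (95% interval 0.88 to 4.48) and by 3.27 at its other probe set (SE 1.25). Pcgf1, a Polycomb repressive complex subunit, differed by 1.49, and Gtf3c6, a subunit of the RNA polymerase III factor TFIIIC, by 1.13. The other genes of the 12 were 3830406C13Rik (2.15), C2cd2 (1.33), Fam149b (1.24), the dehydrogenase gene Dhrs7 (1.24) and Ribc1 (1.20). Pcgf1 and Dhrs7 had a group mean above the boundary in Hif1a+/- tumours alone, so their differences are partly measured against background. In all the groups did not overlap in 5 of the 12.

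Among the 12 highest-ranked genes that were lower in Hif1a+/- tumours, none of which passed either, Glis2 had the smallest p of the comparison. Glis2, which encodes a zinc finger transcription factor related to the Gli proteins, was at 6.95, 7.75, 7.43, 6.62 and 7.67 in Hif1a+/- tumours and 9.57, 9.14, 8.62 and 9.85 in Hif1aKI/+ tumours. The gap between the groups was 0.87, and the difference of -2.01 (SE 0.38, 95% interval -2.83 to -1.19, 4.03-fold lower) had the smallest limma p, with an adjusted p of 0.99998. The Hif1a+/+ tumours, at 7.88 to 9.55, all lay above the highest Hif1a+/- tumour.

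Polr3gl, a subunit of RNA polymerase III, was at 6.44, 6.08, 7.97, 6.70 and 7.37 in Hif1a+/- tumours and 7.67, 8.59, 8.35 and 8.75 in Hif1aKI/+ tumours (difference -1.42, SE 0.35, 95% interval -2.20 to -0.65). Only Hif1a+/- tumour 3 reached into the Hif1aKI/+ range. Card10, which encodes a scaffold of NF-kappaB signalling, was at 6.32, 4.60, 3.55, 2.56 and 5.57 in Hif1a+/- tumours and 8.65, 7.44, 9.39 and 9.28 in Hif1aKI/+ tumours, without overlap (difference -4.17, SE 1.13, 95% interval -6.63 to -1.71). Hif1a+/+ tumours ranged from 3.63 to 9.40 and so covered nearly the whole span of both.

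Rab6b, a Rab GTPase known from neurons, was at background in all 5 Hif1a+/- tumours (2.06 to 2.08) and in all Hif1a+/+ tumours (2.06 to 2.07). In Hif1aKI/+ tumours it was at 7.24, 6.95, 11.58 and 2.07, so 3 of the 4 carried signal and tumour 5 did not (difference -4.89). It passed the level filter through the Hif1aKI/+ tumours alone, and with the other tumours at background the fitted interval does not describe its spread, so none is given. Padi3, a protein arginine deiminase gene, was likewise below the boundary in all 5 Hif1a+/- tumours (3.28 to 3.94), and at 4.01, 6.29, 7.68 and 5.61 in Hif1aKI/+ tumours. Padi3 too passed the level filter through the Hif1aKI/+ tumours alone, and where its groups came closest both values lay below the boundary.

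Cd160, a receptor of cytotoxic lymphocytes, was at 6.56, 4.97, 6.12, 5.49 and 2.93 in Hif1a+/- tumours and 7.22, 7.38, 6.13 and 8.37 in Hif1aKI/+ tumours (difference -2.06, SE 0.71, 95% interval -3.61 to -0.51). In Hif1a+/+ tumours it was at 7.24 to 9.46, above all 5 Hif1a+/- tumours. Of the 11 measured NK and cytotoxic markers, Cd160 included, 8 were higher in Hif1a+/- tumours, with a median of 0.16. In 6 of these markers both means lay below the boundary. The rest of the 12 were the neuronal intermediate filament gene Ina (-2.05), Psors1c2 (-1.74), the glutathione-degrading enzyme gene Chac1 (-1.60), the synaptic vesicle gene Syngr1 (-1.59), Tmc4 (-1.59) and the lysosomal membrane gene Cln3 (-1.16). Psors1c2 and Chac1 passed the level filter through Hif1aKI/+ tumours alone, with Hif1a+/- means of 3.61 and 3.41, below the boundary. The groups did not overlap in 4 of the 12 lower genes, against 0.439% of all genes. That count likewise follows from their being picked by p.

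**Figure D3:**
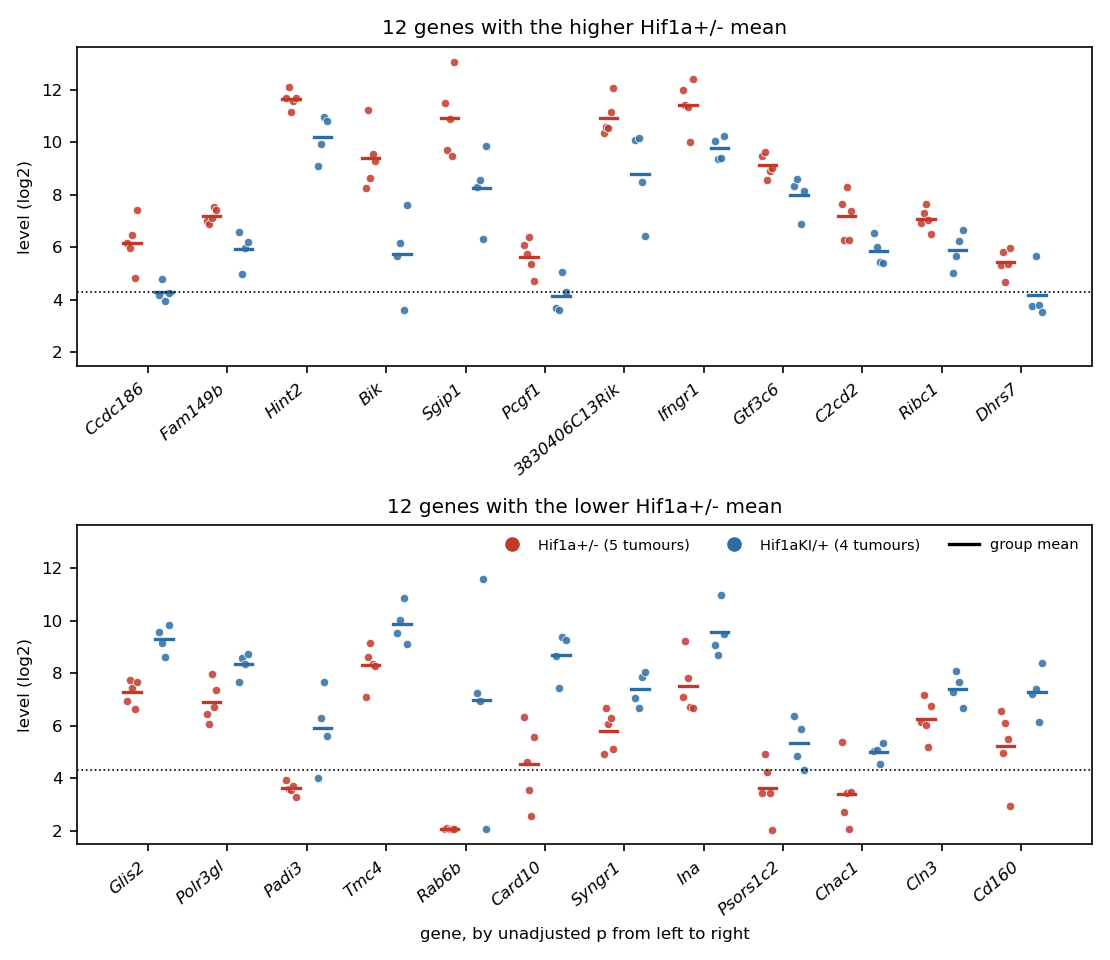
Level (log2) of the 12 highest-ranked genes higher in Hif1a+/- tumours (upper panel) and the 12 lower (lower panel), with 1 point per tumour, a bar at each group mean and a dotted line at the low-mode boundary. The groups separate fully in 5 of the 12 upper genes and 4 of the 12 lower ones, counts that follow from picking the genes by their p in this comparison. Rab6b is at background in every Hif1a+/- tumour.

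Dhx15, which encodes an RNA helicase used in splicing, showed a small difference with little spread. It was at 13.29, 13.29, 13.22, 13.33 and 13.27 in Hif1a+/- tumours and 13.49, 13.44, 13.49 and 13.44 in Hif1aKI/+ tumours (difference -0.18, SE 0.042, 95% interval -0.28 to -0.092). The groups did not overlap at this probe set, whereas the other Dhx15 probe set differed by -0.090 (SE 0.10). Stab1, a scavenger receptor gene of macrophages and sinus-lining cells, differed by -0.18 with overlapping groups (95% interval -0.58 to 0.22).

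HIF cores were found in promoters of genes ranked in both directions. Of the 12 higher genes 10 had a promoter window and all 10 held a core, and of the 12 lower genes 11 had a window and 7 held a core, against 65.8% of the 8245 tested genes with a window and 43.8% of all 32851 windows. A gene counts here when any of its windows holds a core, so genes with several starts have more chances than a single window. Ccdc186 (chr19:56822150-56822449, minus strand) and Polr3gl (chr3:96594132-96594431, minus strand) are shown as a higher and a lower gene with 2 cores each; in Polr3gl they overlap in CACGTG.
Ccdc186: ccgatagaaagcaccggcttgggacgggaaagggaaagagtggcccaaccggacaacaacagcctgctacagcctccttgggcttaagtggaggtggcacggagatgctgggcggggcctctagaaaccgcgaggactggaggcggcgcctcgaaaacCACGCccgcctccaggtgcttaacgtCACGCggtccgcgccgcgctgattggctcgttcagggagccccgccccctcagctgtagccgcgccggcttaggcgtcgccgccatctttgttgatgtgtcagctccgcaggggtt
Polr3gl: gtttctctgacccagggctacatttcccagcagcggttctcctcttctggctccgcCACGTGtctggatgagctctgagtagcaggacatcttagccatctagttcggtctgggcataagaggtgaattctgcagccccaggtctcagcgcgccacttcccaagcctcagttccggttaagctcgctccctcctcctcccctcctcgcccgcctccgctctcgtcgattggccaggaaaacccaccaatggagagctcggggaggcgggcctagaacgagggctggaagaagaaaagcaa

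Glycolytic genes, enzymes together with the transporter genes Slc2a1, Slc2a3 and Slc16a3, were mostly lower in Hif1a+/- than in Hif1aKI/+ tumours. Of 17 genes 16 were below 0, with a median difference of -0.21, the value of Slc2a1, where 53.1% of all genes were below 0. None passed, and 1 was at an unadjusted p under 0.05, against 1.65% of all genes in that direction. That gene was the aldolase Aldoc, at 2.12 to 2.18 in Hif1a+/- tumours, so at background, and at 2.12, 4.56, 6.06 and 2.11 in Hif1aKI/+ tumours. The pyruvate kinase gene Pkm was at 12.83, 13.05, 13.46, 12.79 and 12.76 in Hif1a+/- tumours and 13.13, 13.53, 13.21 and 13.26 in Hif1aKI/+ tumours (difference -0.30, SE 0.15, 95% interval -0.63 to 0.023). Only Hif1a+/- tumour 3 was above the lowest Hif1aKI/+ tumour.

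The hexokinase gene Hk2 was at 7.70 ± 1.79 in Hif1a+/- tumours (SD, n = 5) and 8.76 ± 1.14 in Hif1aKI/+ tumours (SD, n = 4), a difference of -1.05 (SE 0.99). Differences were also measured for the glucose transporter gene Slc2a3 (-0.54), the aldolase gene Aldoa (-0.35), the glucose transporter gene Slc2a1 (-0.21), the lactate dehydrogenase gene Ldha (-0.14) and the phosphoglycerate kinase gene Pgk1 (-0.026), none at an unadjusted p under 0.05. The mean over the 17 genes was 11.09, 11.05, 11.30, 10.78 and 10.47 in Hif1a+/- tumours and 11.21, 11.75, 11.26 and 10.89 in Hif1aKI/+ tumours. The groups overlapped, with Hif1a+/- tumour 5 lowest and Hif1aKI/+ tumour 3 highest. Leaving out Hif1a+/- tumour 5 gave 15 of 17 lower, a median of -0.12 and 0 at an unadjusted p under 0.05.

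A second list of hypoxia-induced genes, which shares Slc2a1 with the glycolytic genes and holds the phosphofructokinase regulator gene Pfkfb3, was mixed. Of its 26 genes 17 were lower, with a median of -0.21, where 53.1% of all genes were below 0. At an unadjusted p under 0.05 there were 2, both lower, against 1.65% of all genes. The transferrin receptor gene Tfrc, which serves iron uptake, was at 13.29, 13.74, 13.41, 13.79 and 12.78 in Hif1a+/- tumours and 13.80, 13.92, 14.11 and 13.86 in Hif1aKI/+ tumours (difference -0.52, SE 0.22, 95% interval -1.0 to -0.034). The groups did not overlap, although Hif1a+/- tumour 4 and Hif1aKI/+ tumour 1 were nearly level. The histone demethylase gene Kdm4b differed by -0.49 (95% interval -0.98 to -0.01), and its Hif1aKI/+ values of 7.22, 7.14 and 7.22 in tumours 1, 3 and 4 contrasted with 6.55 in tumour 5.

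Pfkfb3, which makes the allosteric activator of phosphofructokinase, differed by 0.51 and the lipid droplet gene Plin2 by 0.41 (95% intervals -0.085 to 1.10 and -0.094 to 0.92). The vascular growth factor gene Vegfa differed by -0.35 and the mitophagy gene Bnip3 by -0.33 (95% intervals -1.10 to 0.41 and -1.69 to 1.03). All 21 hypoxia-induced genes with a promoter window held a HIF core, as did 15 of 16 glycolytic genes. Among all tested genes with a window the share was 65.8%, and a link between cores and these differences was not tested. The hypoxia list had a median of -0.043 and 16 of 26 lower when Hif1a+/- tumour 5 was left out. At an unadjusted p under 0.05 there were 0 genes without Hif1aKI/+ tumour 4 and 0 without the pair with Xist signal, where 17 and 15 of 26 were lower.

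Several Notch pathway genes were uneven among Hif1a+/- tumours and even among Hif1aKI/+ tumours. The receptor gene Notch3 was at 8.93, 6.78, 11.20, 10.95 and 9.74 in Hif1a+/- tumours and 11.32, 11.69, 11.52 and 11.39 in Hif1aKI/+ tumours. The groups did not overlap, the Hif1a+/- tumours spread over more than 4 log2 units and the Hif1aKI/+ tumours stayed close together, as the SDs of 1.79 (n = 5) and 0.16 (n = 4) show. The difference was -1.96 (SE 0.74, 95% interval -3.57 to -0.35), and -2.21 at the other probe set (SE 1.0). That interval assumes equal spread in the groups, which these SDs do not show.

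Ptcra, which encodes the pre-T cell receptor alpha chain and is a Notch target in thymocytes, was at 9.78, 9.52, 12.74, 12.12 and 8.61 in Hif1a+/- tumours and 12.58, 12.45, 12.37 and 12.72 in Hif1aKI/+ tumours. Hif1a+/- tumours 1, 2 and 5 were low and tumours 3 and 4 lay near the Hif1aKI/+ level, with tumour 3 above all of it (difference -1.98, SE 0.74, 95% interval -3.60 to -0.35). The Notch feedback gene Dtx1 was low in Hif1a+/- tumours 2 and 5 (2.62 and 1.90) and at 9.0, 11.13 and 11.27 in tumours 1, 3 and 4, against 11.29, 10.83, 8.37 and 11.36 in Hif1aKI/+ tumours. Its difference of -3.27 had a 95% interval of -7.45 to 0.91.

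Notch1 was at 12.98, 11.40, 14.39, 14.22 and 12.59 in Hif1a+/- tumours and 13.82, 14.09, 14.15 and 13.40 in Hif1aKI/+ tumours (difference -0.75, 95% interval -1.87 to 0.38). The same tumours 1, 2 and 5 were the low ones and tumours 3 and 4 exceeded every Hif1aKI/+ tumour. Adam10, which encodes the protease that cleaves ligand-bound Notch, was at 11.92, 11.72, 11.90, 12.01 and 12.06 in Hif1a+/- tumours and 12.14, 12.24, 12.50 and 12.05 in Hif1aKI/+ tumours (difference -0.31, SE 0.13, 95% interval -0.59 to -0.036). The ligand gene Jag2 differed by -1.0 (95% interval -1.99 to -0.005) and the glycosyltransferase gene Mfng by -0.44 (95% interval -0.94 to 0.058).

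Of 23 measured receptors, ligands and processing genes 14 were lower, with a median of -0.047, and 3 were lower at an unadjusted p under 0.05, against 1.65% of all genes. That number was 1 without Hif1aKI/+ tumour 4 and 0 without the tumours with Xist signal, with 15 and 17 of 23 lower. Of 17 Notch targets 7 were lower, with a median of 0.073, and without Hif1aKI/+ tumour 4 there were 10 lower, with a median of -0.14. The repressor gene Hes1 differed by -0.66, Myc by -0.67 and the feedback inhibitor gene Nrarp by 0.42 (95% intervals -2.94 to 1.62, -1.97 to 0.63 and -2.48 to 3.31). Without Hif1a+/- tumour 5 and Hif1aKI/+ tumour 4 these differences were 0.027, 0.036 and -0.14. The transcription factor gene Gata3 differed by 0.87 and Gfi1 by 0.68. Il2ra, the interleukin 2 receptor alpha chain, was below the boundary in all 9 tumours but Hif1a+/- tumour 1, at 6.29.

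**Figure D4:**
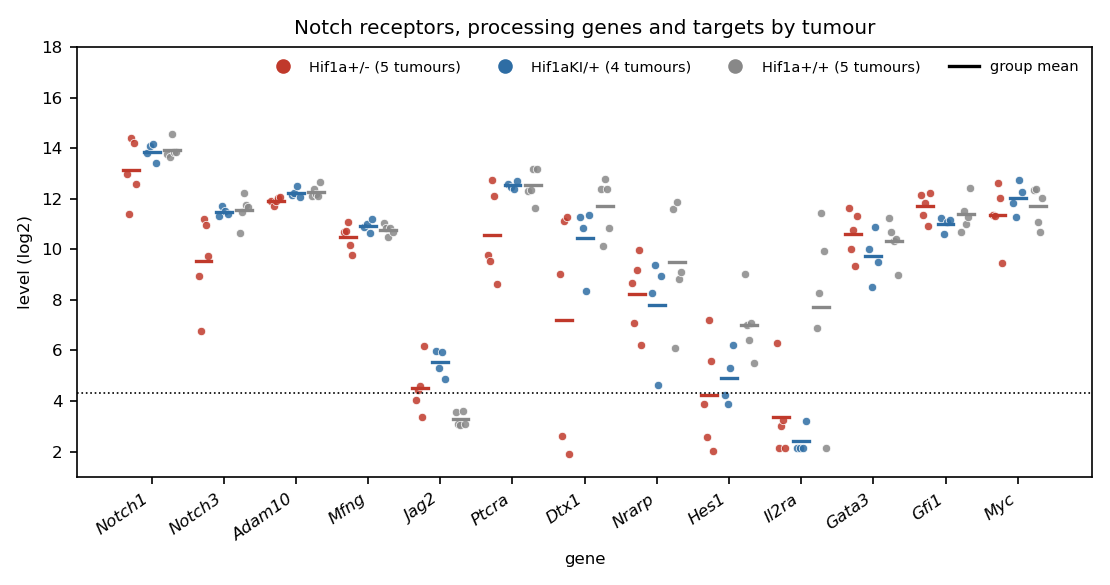
Level (log2) of Notch receptors, processing genes and targets, with 1 point per tumour, a bar at each group mean and a dotted line at the low-mode boundary. Notch3 and Ptcra vary by several log2 units among Hif1a+/- tumours (SD 1.79 and 1.78) and little among Hif1aKI/+ tumours (SD 0.16 and 0.15).

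The wider spread was not particular to those genes. The SD was larger in Hif1a+/- tumours for 14 of the 23 receptor, ligand and processing genes and 9 of the 17 targets, and Notch2, at 0.11 in Hif1a+/- and 0.25 in Hif1aKI/+ tumours, ran the other way. Among 7377 genes with a mean above the boundary the median SD was 0.47 in Hif1a+/- and 0.39 in Hif1aKI/+ tumours, and 62.1% of genes had the larger SD in Hif1a+/-. An SD of at least 1.5 in Hif1a+/- with one under 0.25 in Hif1aKI/+ was seen in 11 genes, Notch3 and Ptcra among them, and the opposite in 3. These were picked by their spread, so the counts are a description, and the 5 Hif1a+/- tumours include tumour 5, which stood apart.

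Genes of growth and proliferation were lower in Hif1a+/- tumours mostly through tumour 5. Of 29 Myc and ribosome biogenesis genes 26 were lower, with a median of -0.19. The list mean was 11.23, 11.24, 11.39, 11.46 and 10.25 in Hif1a+/- tumours and 11.40, 11.46, 11.14 and 11.43 in Hif1aKI/+ tumours, tumour 5 being the low one. Without Hif1a+/- tumour 5, 15 of 29 were lower with a median of -0.030. The RNA polymerase I initiation factor gene Rrn3 had the smallest p, at 11.34, 11.69, 11.97, 12.49 and 11.22 in Hif1a+/- tumours and 12.19, 12.33, 12.42 and 12.39 in Hif1aKI/+ tumours (difference -0.59, SE 0.21, 95% interval -1.05 to -0.13).

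Of 40 DNA replication and cell cycle genes 29 were lower, with a median of -0.17, where 53.1% of all genes were below 0. At an unadjusted p under 0.05 there were 5, all lower, against 1.65% of all genes. Mcm4, a subunit of the replicative helicase, was at 11.59, 12.04, 11.83, 12.63 and 10.15 in Hif1a+/- tumours and 12.51, 12.71, 12.52 and 12.77 in Hif1aKI/+ tumours (difference -0.98, SE 0.38, 95% interval -1.80 to -0.16). Only Hif1a+/- tumour 4 reached the Hif1aKI/+ range. Once Hif1a+/- tumour 5 was left out, 23 of those 40 genes were lower and 1 was at an unadjusted p under 0.05, and without the tumours with Xist signal 31 were lower, again with 1 at that level.

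The helicase subunit gene Mcm2 differed by -0.51, the helicase component gene Cdc45 by -0.68 and the licensing factor gene Cdt1 by -0.37. Of 19 DNA repair genes 15 were lower, with a median of -0.30, led by the DNA-dependent kinase gene Prkdc (-0.92, 95% interval -1.83 to -0.009), and 14 were lower without Hif1a+/- tumour 5 (median -0.19). The cyclin gene Ccnd1 was at 8.69, 11.16, 9.51, 6.13 and 8.14 in Hif1a+/- tumours and 10.61, 11.99, 12.03 and 10.60 in Hif1aKI/+ tumours. Hif1a+/- tumour 2 alone lay within the Hif1aKI/+ range (difference -2.58, SE 1.06, 95% interval -4.90 to -0.26), and the other probe sets differed by -2.43 and -1.46. The pocket protein gene Rbl2 (1.26) and the Cdk inhibitor genes Cdkn2c (0.81) and Cdkn2d (0.52) were higher on average without passing, and 7 of the 15 D cyclins and Cdk inhibitors were lower.

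Targets of p53, in mice without wild-type p53, were mixed. Of 18 measured 12 were higher, with a median of 0.17, where 46.9% of all genes were above 0. At an unadjusted p under 0.05 there were 2, both higher, against 1.41% of all genes. They were the ribonucleotide reductase subunit gene Rrm2b (0.39, 95% interval 0.032 to 0.75) and the death receptor gene Tnfrsf10b (0.45). The Tnfrsf10b values, 3.20 or less, were all at background. Mdm2, which encodes the p53 ubiquitin ligase, differed by 0.53 (95% interval -0.075 to 1.14). With Hif1a+/- tumour 5 left out, 8 of 18 were higher and the median was -0.066, with 0 at an unadjusted p under 0.05.

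Interferon-induced genes were evenly divided, 14 of 28 lower, with a median of 0.027. The antiviral GTPase gene Mx1 was at 7.11, 9.02, 9.01, 6.20 and 8.43 in Hif1a+/- tumours and 5.01, 4.31, 7.65 and 5.14 in Hif1aKI/+ tumours (difference 2.43, SE 1.08, 95% interval 0.067 to 4.79), while the deconjugating enzyme gene Usp18 differed by -1.33 (95% interval -2.93 to 0.27). The list was lowest in Hif1a+/- tumour 5 (5.96) and highest in Hif1aKI/+ tumour 4 (8.0). Without these 2 tumours 3 of 28 were lower and the median was 0.51. In that fit 4 were at an unadjusted p under 0.05, all of them higher, against 109 higher of all 10254 genes. The count thus turned on the tumours that stood apart.

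T cell stage genes had list medians close to 0. Of 15 double-negative thymocyte genes 8 were lower, of 12 double-positive genes 8 were lower, and of 15 genes of the T cell receptor complex and its signalling 7 were lower, with medians of -0.0091, -0.052 and 0.0006. In the double-negative list 7 of the 15 genes had both means below the boundary, and with the filter on level the median was -0.66. The 2 lower at an unadjusted p under 0.05, against 1.65% of all genes, were Notch3 and Ptcra. The double-positive count turned round without Hif1aKI/+ tumour 4, with 3 of 12 lower and a median of 0.019. The co-receptor gene Cd4 was at 12.44, 10.57, 11.69, 9.22 and 12.86 in Hif1a+/- tumours and 10.86, 10.85, 10.08 and 10.65 in Hif1aKI/+ tumours, and so varied far more among Hif1a+/- tumours (95% interval -0.78 to 2.26). Ptprc, which encodes CD45, differed by -0.28 and the kinase gene Prkcq by 0.77 (95% intervals -0.54 to -0.028 and 0.052 to 1.48).

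Among markers of cells other than T cells, matrix, macrophage and B cell genes were mostly lower in Hif1a+/- tumours, and the other lists did not share 1 direction. In whole tumours fewer cells of a type and less RNA per cell cannot be told apart. Fibroblast and matrix genes had 19 of 21 lower with a median of -0.45, where 53.1% of all genes were below 0. At an unadjusted p under 0.05 there was 1, against 1.65% of all genes lower at that level. The list includes Thy1 (-0.14), given above as a T-lineage gene, so it is not purely of cells other than T cells. The list mean was 9.26, 9.55, 8.75, 8.92 and 8.85 in Hif1a+/- tumours and 9.95, 9.80, 8.83 and 9.56 in Hif1aKI/+ tumours, so Hif1aKI/+ tumour 4 lay among the Hif1a+/- tumours. The collagen gene Col6a1 was at 10.08, 10.60, 10.50, 9.97 and 10.30 in Hif1a+/- tumours and 11.53, 11.62, 10.51 and 11.06 in Hif1aKI/+ tumours (difference -0.89, SE 0.39, 95% interval -1.74 to -0.039).

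Without Hif1aKI/+ tumour 4 the median of the matrix list was -0.80, with 5 lower at an unadjusted p under 0.05, against 165 of all 10254 genes. In each fit without the tumours that stood apart or carried Xist 18 or 19 of 21 were lower. Fibronectin, Fn1, differed by -1.0 and the collagen gene Col6a2 by -0.83 (95% intervals -2.26 to 0.26 and -1.75 to 0.086). The matrix list was lower by count in the same comparison as the glycolytic and Notch receptor genes, and its part in those values was not tested.

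Macrophage markers had 18 of 22 lower with a median of -0.21 and 0 at an unadjusted p under 0.05. The list mean was 8.27 to 9.02 in Hif1a+/- and 8.45 to 9.30 in Hif1aKI/+ tumours. The growth factor receptor gene Csf1r was at 12.45, 13.39, 13.24, 12.71 and 12.56 in Hif1a+/- tumours and 13.53, 13.41, 13.18 and 13.17 in Hif1aKI/+ tumours (difference -0.45, 95% interval -0.90 to 0.0018). The complement gene C1qb, at 14.21 to 14.53 in Hif1a+/- and 14.55 to 14.66 in Hif1aKI/+ tumours, did not overlap but differed by only -0.21 (95% interval -0.47 to 0.061).

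B cell markers had 10 of 11 lower, with a median of -0.26, and 5 had both group means below the boundary, Cd79a among them. The receptor chain gene Cd79b was at 3.05, 6.82, 4.01, 3.53 and 2.60 in Hif1a+/- tumours and 6.88, 7.75, 7.25 and 4.80 in Hif1aKI/+ tumours (difference -2.67, SE 1.14, 95% interval -5.16 to -0.18). The list mean was 4.83 to 7.05 in Hif1a+/- and 5.43 to 6.61 in Hif1aKI/+ tumours, and was highest in Hif1a+/- tumour 2. Without Hif1a+/- tumour 5 and Hif1aKI/+ tumour 4 the B cell count was 6 of 11 lower, with a median of -0.018. Endothelial markers had 11 of 17 lower, 9 with both means below the boundary, and 8 of 17 lower without the tumours with Xist signal. NK and cytotoxic markers had 3 of 11 lower, granulocyte and mast cell markers 2 of 8, erythroid markers 3 of 6, muscle markers 2 of 4 and adipocyte markers 6 of 7. In these lists 6, 5, 4, 3 and 3 genes had both means below the boundary.

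Thymic epithelial markers had 12 of 17 lower with a median of -0.17. The list mean was lowest in Hif1a+/- tumour 1 (5.44) and highest in Hif1aKI/+ tumour 1 (7.28), the pair with Xist signal, and without them 7 of 17 were lower with a median of 0.14. The autoimmune regulator gene Aire, a marker of medullary epithelium, was at 3.01, 3.51, 5.99, 2.94 and 2.04 in Hif1a+/- tumours and 7.37, 7.40, 5.40 and 2.18 in Hif1aKI/+ tumours (difference -2.09, 95% interval -4.57 to 0.39). Of the 13 genes marking dendritic cells or encoding MHC class II chains 8 were lower, and 1 was without the same pair.

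**Figure D5:**
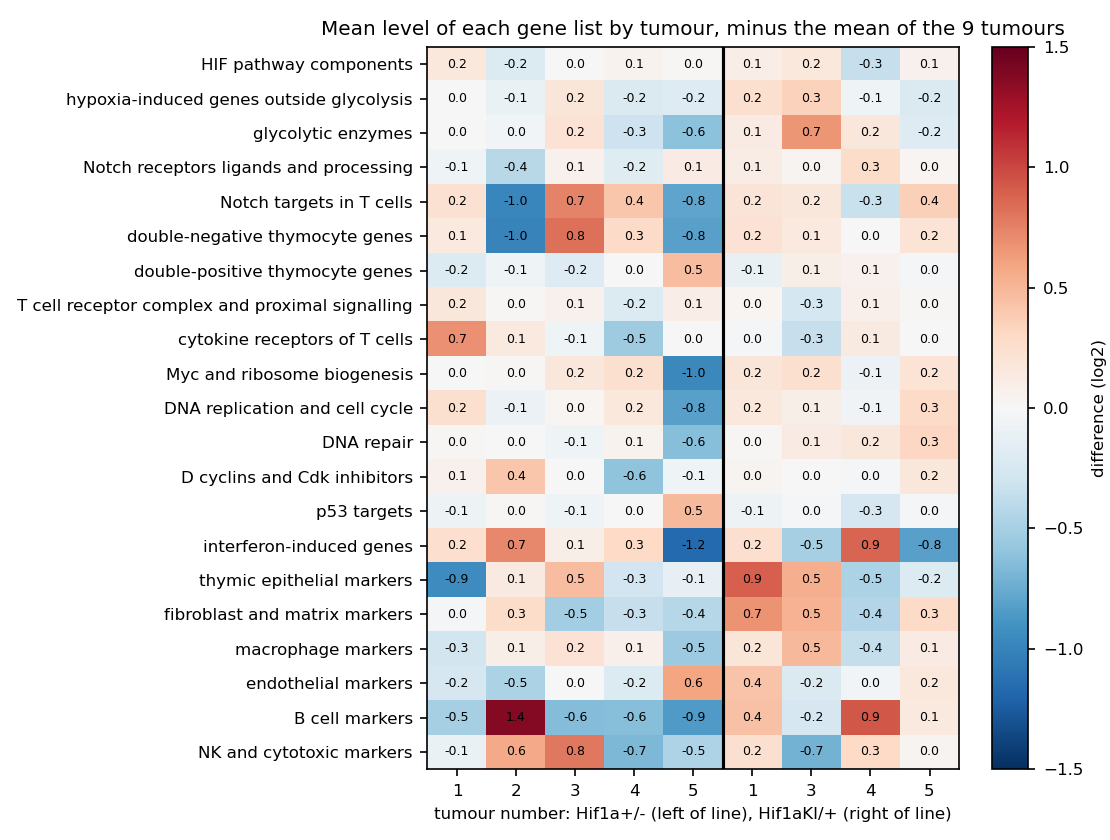
Mean level of each gene list (rows) in each tumour (columns, Hif1a+/- tumours left of the line, Hif1aKI/+ tumours right), as the log2 difference from the mean of the 9 tumours. Hif1a+/- tumour 5 is low in the Myc, cell cycle, DNA repair and interferon lists, and 0 lists separate the genotypes.

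Genes beside Hif1a on chromosome 12 did not shift together. The 25 nearest measured genes on each side (GRCm38.p6, positions 69311541 to 79296323, Hif1a itself at 73901324 to 73947554) had 28 higher and 22 lower, with a median of 0.016 and 0 without overlap between the groups. At an unadjusted p under 0.05 were 2 of the 50 (4%, against 3.06% of all genes). One was Dhrs7, at 72650353 to 72664828, with 5.32, 5.83, 4.70, 5.39 and 5.96 in Hif1a+/- tumours and 3.78, 5.69, 3.81 and 3.53 in Hif1aKI/+ tumours, of which tumour 3 alone lay within the Hif1a+/- range. The other, named after its value was seen, was Gphn, which encodes the scaffold protein gephyrin, at -0.80 (SE 0.28).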

How the data were processed

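RNA of 14 thymic lymphomas, 1 array each, was compared through the series value table. The authors deposited one log2 value per probe set and array, and GCRMA (background by probe sequence, then normalization between arrays) and Partek are named in the submitters' processing notes. Their versions and the genome build are not given in the sources used here. Such values compress low signals, so differences below the low-mode boundary (4.3, the density minimum between the low and the high mode) are uncertain. All value columns were used.

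Of 18264 probe sets, 16602 name 1 gene, 603 several and 1059 none in the platform annotation, and symbols were updated by Entrez ID (16583 matched in RefSeq, GRCm38.p6). The probe set of highest mean stood for a gene, giving 10254 genes, 3999 with more than 1 probe set. limma 3.58.1 in R 4.3.3 fitted a mean per genotype to all 14 arrays (lmFit, eBayes), and the difference Hif1a+/- minus Hif1aKI/+ was tested two-sided with Benjamini-Hochberg adjustment over all genes at 0.05. Hif1a and Epas1 were also tested two-sided by exact permutation, with all 126 assignments of the 9 arrays. The procedure was tested on simulated data. Python 3.11.15 with pandas 2.3.3 and scipy 1.17.1 made the tables.

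Named genes were a preset list of HIF, hypoxia and Notch genes with Stab1 and Dhx15 (1 gene of it is not analysed here), up to 12 in each direction of smallest p with a difference of at least 1 and a group mean above the boundary, and the 4 members of smallest p in each list described; other names were chosen after values were seen. The groups, genes and 38 lists were chosen with earlier results of these data known, so lists got counts and medians and no test. The labels call the tumours biological replicates, 1 mouse each is not stated, and the p-values measure the spread between these tumours; the number of arrays limits precision. Same-numbered tumours of the 2 genotypes did not deviate together (residual correlations -0.035, 0.06, -0.052 and 0.07), so numbers were not used as pairs. Alternatives covered the arrays fitted, level filter, quantile normalization, centring, moderation, array weights, probe set rule, a Y-linked covariate, thresholds, the replicate number as a block and leaving out arrays.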

Additional observations from a re-analysis of the deposited data

Results flagged for a closer look

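A value was picked out when 1 tumour's gap to its nearest neighbour took up most of its group's range. Of 308 sets of values examined 34 were picked out, 9 of them in Hif1a+/- tumour 5. The rule picks about 1 in 20 by chance from independent, normally distributed values. These sets share the same tumours and some lie at background, so the counts are a description and show no excess over chance.

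Hif1a+/- tumour 5 was low for the mean of the Myc and ribosome biogenesis list (10.25, others 11.23 to 11.46), DNA repair (9.44, others 10.01 to 10.14), cytoplasmic ribosomal proteins (12.71, others 12.94 to 13.03) and muscle markers (3.07, others 3.49 to 3.62), and high for p53 targets (8.76, others 8.20 to 8.30). It was also low for the interferon regulator gene Irf7 (2.34, others 5.25 to 6.44), the co-stimulatory receptor gene Tnfrsf9 (5.12), the nucleolar gene Gnl3 (13.09) and the granzyme gene Gzma (12.20).

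Hif1a+/- tumour 1 was high for the interleukin 2 receptor genes Il2ra (6.29, others 2.12 to 3.24) and Il2rb (4.57, others 2.06 to 2.17) and low for the recombinase gene Rag2 (7.17, others 9.83 to 10.58) and Icam2 (9.94); Sesn2 was at 2.36, all at background. Tumour 2 was high for the mean of B cell markers (7.05, others 4.83 to 5.17), and its Rab6b value of 2.08 was at background like the others. Tumour 3 was low for the adhesion gene Cd2 (9.34, others 11.54 to 12.02) and high for granzyme gene Gzmb (5.63, others 2.0 to 2.01). Tumour 4 was low for the signalling adaptor gene Lcp2 (10.94) and for the mean of chemokine and homing receptors (5.73, others 6.42 to 6.67), and its Epas1 value was 2.03.

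Among Hif1aKI/+ tumours, tumour 1 was high for the thymic protease gene Prss16 (4.64, others 2.04). Tumour 3 was high for Dhrs7 (5.69, others 3.53 to 3.81) and muscle markers (3.58) and low for Ptprc (12.97) and Gzma (10.31, others 13.36 to 13.88). Tumour 4 was low for Cd2 (7.92, others 10.90 to 11.15), Brca2 (10.25) and the mean of the Bcl2 family (7.72) and high for Mertk (7.90). Tumour 5 was high for Epas1 (2.82), Sesn2 (3.31) and Il2ra (3.22), all at background, and low for Kdm4b (6.55).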

How the results depend on the processing

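The count of genes past the threshold was 0 in every fit other than leave-one-out fits, which gave 0 to 1: Tmem38a (-1.64, adjusted p = 0.0477) without Hif1aKI/+ tumour 3 and Hif3a (-1.36, adjusted p = 0.0422) without Hif1a+/+ tumour 5. Leaving out 1 array moved the count at an unadjusted p under 0.05 between 111 and 230 for higher and 138 and 290 for lower genes; without Hif1a+/- tumour 4 these were 224 and 290, and without Hif1aKI/+ tumour 5 there were 230 higher. With the replicate number as a block 0 genes passed (at an unadjusted p under 0.05, 164 were higher and 242 lower), and Pgk1 was at 0.012. The Hif1a difference was 0.44 to 0.83 over all alternatives. Of 3761 alternative values 3731 were labelled the same, 16 reversed, 13 moved and 1 stronger. Not every change of sign was counted as reversed, and list medians near 0 changed sign in several fits. The medians of Notch targets and respiratory chain genes were 0.073 and 0.020, and -0.14 and -0.031 without Hif1aKI/+ tumour 4. Without Hif1a+/- tumour 5 and Hif1aKI/+ tumour 4, a choice made after seeing the data, Hes1 was at 0.027, Nrarp at -0.14 and Myc at 0.036, and list medians were -0.12 for HIF components, -0.037 for p53 targets and -0.19 for the Bcl2 family. Without the 2 tumours with Xist signal, also chosen after seeing the data, Prss16 was at 0.14. With the filter on level, which removes the low members, the medians of double-negative genes and Wnt genes were -0.66 and -0.37. Leave-one-out ranges that crossed 0 were -0.73 to 0.084 (Bnip3), -0.076 to 1.12 (Gzma), -0.00013 to 0.91 (Gzmb), -0.64 to 0.94 (Nrarp), -0.091 to 0.053 (Pgk1), -1.18 to 0.024 (Pou2af1), -0.75 to 0.12 (Prss16) and -0.41 to 0.0033 (Sesn2). List medians ranged from -0.028 to 0.42 (cytokine receptors), -0.066 to 0.29 (p53 targets) and -1.60 to -0.40 (sex-linked genes). Other causes were not tested. Signal near background limits Hif3a, Epas1 and Rab6b, and group sizes of 5 and 4 limit all intervals.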

Other observations

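Several lists not described above had medians close to 0. Of 29 respiratory chain and ATP synthase genes 13 were lower in Hif1a+/- tumours (median 0.020), of 18 autophagy genes 10 (median -0.0029), of 12 MHC class I and antigen processing genes 8 (median -0.057), and of 19 cytoplasmic ribosomal protein genes 10 (median -0.00091). These counts moved with single tumours: 21 of the 29 respiratory chain genes were lower without Hif1aKI/+ tumour 4, and 5 of the 19 ribosomal protein genes without Hif1a+/- tumour 5. Chemokine and homing receptors had 3 of 14 lower with a median of 0.24, which was 0.075 with 5 of 14 lower without Hif1a+/- tumour 5, and Wnt and Tcf signalling genes had 12 of 18 lower (median -0.11). In all 24 list medians were below 0 and 14 above, and in 0 of 38 lists did the tumour means of the genotypes separate.

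Genes that were uneven in 1 genotype and even in the other, named after their values were seen, included the disabled-2 interacting protein gene Dab2ip, at 3.45 in Hif1a+/- tumour 4 and 9.44 to 10.31 in the other Hif1a+/- tumours, against 9.81 to 10.21 in Hif1aKI/+ tumours. The mitochondrial phosphoenolpyruvate carboxykinase gene Pck2 was at 10.24 in Hif1a+/- tumour 1, against 5.56 to 5.76 in Hif1aKI/+ tumours. The actin linker gene Rdx, in the opposite way, was at 12.91 to 13.26 in Hif1a+/- tumours and at 9.51 in Hif1aKI/+ tumour 4. The Y-linked gene Eif2s3y was at 2.13 in Hif1a+/- tumour 1 and 2.09 in Hif1aKI/+ tumour 1, the pair with Xist signal, and at 7.81 in Hif1a+/- tumour 3, against 11.40 to 12.42 in the other 6 tumours.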
